A study of Mus musculus with 6 samples.

Results

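The DEAD-box and DEAH-box RNA helicases of mouse were taken as every protein-coding gene whose symbol begins with Ddx or Dhx followed by a digit. This rule gave 52 genes, of which 36 were Ddx and 16 were Dhx genes, among 41079 listed genes and 22255 protein-coding genes. The study asked how the transcriptome of T cells differs after a day of culture in the cold. D10 cells, labelled as a cloned CD4+ helper T cell line of lymph node origin, were kept for 24 h at 26°C (cold-acclimated, 3 libraries) or for 24 h at 37°C (non-acclimated, 3 libraries). No gene was altered in either group, and the temperature was the treatment that separated them. The sources differ on the shared medium: the labels name an RPMI medium with serum and antibiotics, whereas the methods name DMEM that also held IL-2, the growth factor of this line. A single line, labelled as cloned, stands for T cells here, so differences between donors or T cell subsets were not sampled by design. Its libraries nevertheless differed in T cell genes between replicate numbers, as given below.

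RNA helicases use ATP to open short RNA duplexes and to strip or load proteins on RNA. They act at almost every step of an RNA's life, from transcription, splicing and export to ribosome assembly, translation and decay. RNA duplexes become more stable as temperature falls, and RNA helicases are well known from the cold response of bacteria and plants. In mammalian cells the best known cold-induced RNA proteins are RNA-binding proteins rather than helicases.

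The family takes its names from motif II, the short stretch of the helicase core that binds the magnesium ion of ATP. In the coding sequences of GRCm39 (GENCODE vM39), 28 members carried codons for aspartate, glutamate, alanine and aspartate at this place, and 9 carried the form with histidine in place of the last aspartate. The other members differed at the third residue, which was valine in 3 that end in aspartate (Ddx21, Ddx28 and Ddx50) and in 5 that end in histidine (Ddx60, Dhx29, Dhx30, Dhx34 and Dhx57). It was cysteine in Ddx39a, Ddx39b and Dhx58, isoleucine in Dhx9 and Dhx36, and serine in Ddx52, and no such motif was found in Dhx32. Ddx11 and Ddx60 ended in histidine although their symbols begin with Ddx. The windows below are shown for members whose values the results turn on and for their close paralogs, 5′ to 3′ on the coding strand. Capitals mark the 12 bases of motif II, within 30 bases of coding sequence that lie in 1 exon.
Ddx5 (chr11:106676010-106676039, minus strand): cttgtccttGATGAAGCTGATaggatgctt
Ddx17 (chr15:79423067-79423096, minus strand): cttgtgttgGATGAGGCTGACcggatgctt
Ddx21 (chr10:62427651-62427680, minus strand): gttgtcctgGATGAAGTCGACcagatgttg
Ddx50 (chr10:62476281-62476310, minus strand): gttgtgcttGATGAAGTAGATcaaatgtta
Dhx15 (chr5:52328829-52328858, minus strand): ataattcttGATGAGGCCCATgaaagaaca
Dhx57 (chr17:80574952-80574981, minus strand): atcattgttGATGAAGTTCATgagaggaca
Ddx11 (chr17:66445160-66445189, plus strand): gtcattattGACGAGGCTCACaacctgatc
Dhx58 (chr11:100594055-100594084, minus strand): attgtggtgGACGAGTGTCACcacacccac

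Expression was deposited as TPM, in which the reads of a gene are divided by its length and each library is brought to a common sum. The reads behind the TPM could be recovered as whole numbers and came to between 16899628 and 31290854 per library, and a tested member had between 77 and 46322 reads in a library. The 13 T cell markers examined had a summed level of 5319 to 6792 TPM in non-acclimated and 4722 to 5633 TPM in cold-acclimated libraries, but single markers went with the replicate number. Cd4, which the label names, was at 1.09, 0.0351 and 310 TPM in non-acclimated and 1.30, 0.352 and 328 TPM in cold-acclimated libraries, so it was near absent in replicates 1 and 2. Trac, the constant region of the T cell receptor alpha chain, was at 15.0 and 12.8 TPM in both libraries of replicate 2 and at 129 to 207 TPM in the other libraries. The replicates thus differed in defining T cell genes in both conditions alike, and the part of this in the results was not tested. Of 9 B cell markers, 8 stayed below 1 TPM in every library, with a summed level of 2.50 to 3.63 TPM and 2.54 to 3.87 TPM. Of 10 macrophage and monocyte markers, 8 stayed below 1 TPM, 4 of them at 0 throughout, with a summed level of 0.411 to 11.8 TPM and 0.950 to 15.1 TPM. Both libraries of replicate 3 stood apart from the others, and results that rest on them are given with and without them.

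Changes were tested with limma on log2(TPM + 1) over the 12227 genes with a mean of at least 1 TPM, which included 48 members. This fit did not use the replicate number, although deviations from the group mean correlated at 0.48, 0.50 and 0.51 between libraries of the same number. The spread between replicates thus stays in its standard errors and p-values, and a fit with the replicate number as a block is given as an alternative. A gene was called upregulated or downregulated in cold-acclimated cells when its p, adjusted by Benjamini-Hochberg, was below 0.05 and its log2 fold change was 1 or more in size. On this log scale the change of a low gene is understated. In such bulk samples, fewer cells that express a gene and less RNA per cell cannot be told apart.

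Cold-acclimated cells held more transcripts of some helicases and fewer of others. Ddx5, Ddx21 and Ddx54 were upregulated, which is 3 of 48 members (6.25%) where 2.63% of all tested genes were called upregulated. Ddx17, Ddx11, Dhx57 and Ddx59 were downregulated, which is 4 of 48 (8.33%) where 16.0% of all tested genes were. At an unadjusted p under 0.05, 18 members differed (37.5%), close to the share of all tested genes (37.7%), and these were 9 higher and 9 lower, where 7.75% of all genes were higher and 30.0% lower.

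The scaling of the libraries decided how many members counted as upregulated. TPM fixes the total, and the log2 fold changes of all tested genes had a median of -0.34. Under median of ratios scaling, which sets a typical gene to no change and left that median at 0.02, 9 members were upregulated (Ddx5, Ddx21, Ddx54, Ddx10, Ddx19b, Ddx27, Ddx51, Dhx15 and Dhx33) against 6.56% of all genes. Under the same scaling 3 were downregulated (Ddx17, Ddx11 and Dhx57) against 8.79% of all genes. With the replicate number as a block, 3 members were upregulated and 5 downregulated, where 3.75% and 21.9% of all genes were, and the added gene was Ddx60. With both that scaling and the block, 12 were upregulated, the 9 above with Ddx3x, Ddx46 and Dhx9, and 4 downregulated. Of all genes, 8.88% were upregulated and 12.6% downregulated in this setting.

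The members as a set were thus spread around a higher centre than the other genes, which held for the Ddx but not for the Dhx genes. Their median log2 fold change was -0.03, which lay 0.31 above the median of all tested genes, and 34 of 48 members lay above that median. The distance was 0.48, 0.26 and 0.29 in replicates 1, 2 and 3. The 32 tested Ddx genes had a median of 0.17, at a distance of 0.51 from that of all genes, and 27 of them lay above it. The 16 Dhx genes had a median of -0.43, at a distance of -0.10, and 7 of them lay above it. For the Dhx genes the distance was 0.20, -0.20 and 0.01 in replicates 1, 2 and 3.

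The groups did not overlap for 23 members. In 11 (22.9%) every cold-acclimated library was higher than every non-acclimated one, against 9.69% of all tested genes, and in 12 (25.0%) every one was lower, against 31.4%. Compared within replicate numbers, 17 members (35.4%) were higher in cold-acclimated cells in all 3 replicates, against 18.2% of all genes, and 14 (29.2%) were lower in all 3, against 47.9%. The remaining 17 went in both directions.

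**Figure D1:**
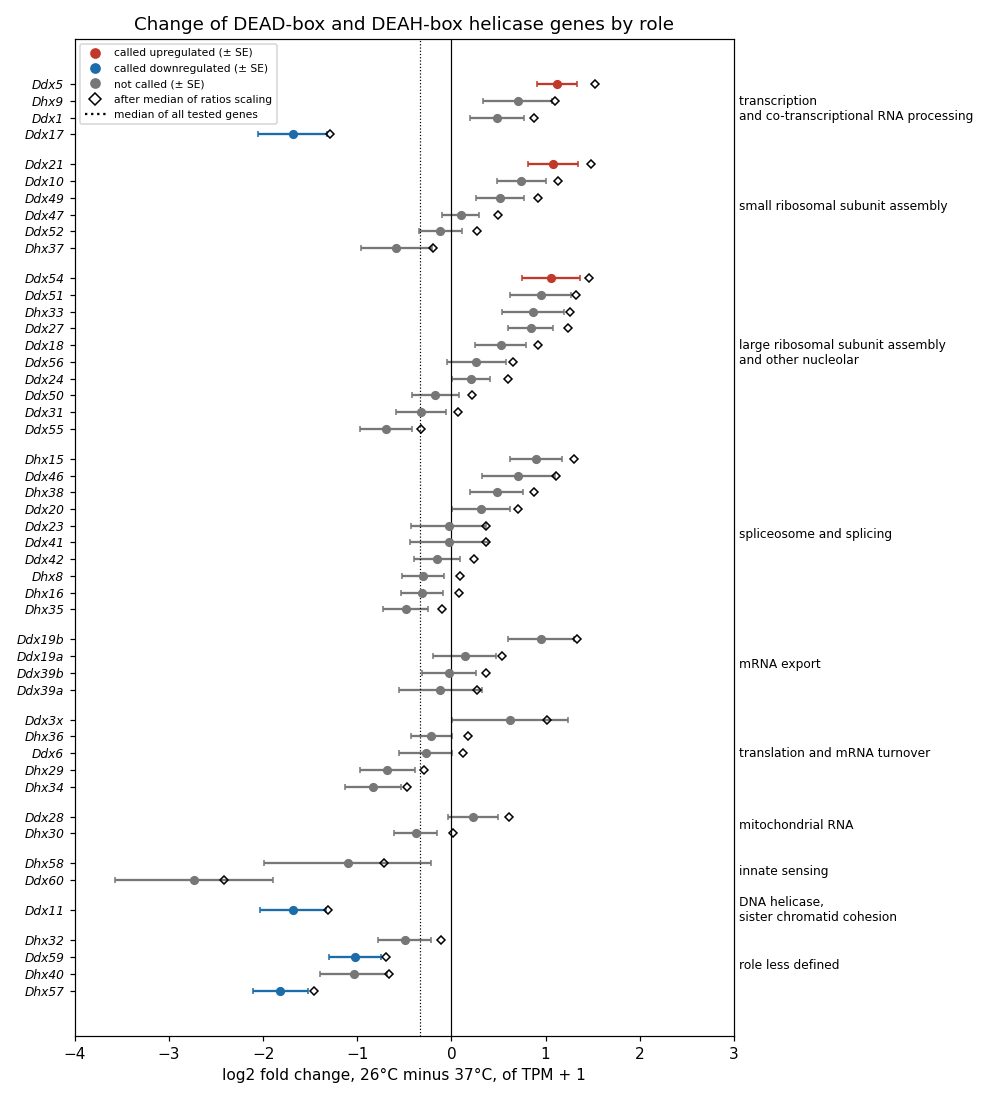
Log2 fold change (26°C minus 37°C, of TPM + 1) of the 48 tested members, grouped by role, with bars for 1 SE from limma over 3 against 3 libraries. Red and blue points are called up and down, open diamonds give the value after median of ratios scaling, and the dotted line is the median of all tested genes (-0.34). Most members lie to the right of the dotted line, and the members with less defined roles and those of innate sensing lie to its left.

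Among helicases that act during transcription, a pair of close paralogs changed in opposite directions. Ddx5, known as p68, is a coactivator of transcription that also takes part in splicing and microRNA processing, and was the most abundant member. Its level was 500, 528 and 606 TPM in non-acclimated replicates 1 to 3 and 1191, 1193 and 1164 TPM in cold-acclimated ones. The groups were far apart and the cold-acclimated libraries were nearly equal, at 545 ± 55.3 TPM against 1183 ± 16.5 TPM (SD, n = 3). This was a 2.17-fold higher mean, with a log2 fold change of 1.12 (SE 0.21, limma adjusted p = 0.0141). The call was lost when replicate 1 or 2 of either condition was left out, with an adjusted p between 0.0533 and 0.0697, while the log2 fold change stayed between 1.06 and 1.20.

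Ddx17, known as p72, is the close paralog of Ddx5 and forms heterodimers with it. It had 141, 119 and 217 TPM in non-acclimated and 36.4, 37.4 and 76.5 TPM in cold-acclimated libraries. Both libraries of replicate 3 were the highest of their group, and the groups did not overlap. The mean was 3.17-fold lower in cold-acclimated cells, with a log2 fold change of -1.68 (SE 0.37, limma adjusted p = 0.0211). Leaving out replicate 1 or 2 of either condition raised the adjusted p to between 0.0587 and 0.0831.

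The balance between the paralogs therefore shifted toward Ddx5. The log2 ratio of Ddx5 to Ddx17 was 1.82, 2.14 and 1.48 in non-acclimated and 4.99, 4.96 and 3.91 in cold-acclimated libraries. Apart from the pseudocount, this ratio does not depend on the scaling between libraries. The ratio was higher by 2.81 on the log2 scale, with an exact two-sided permutation p of 0.1, the smallest that 3 against 3 libraries allow, and 0.2 after adjustment over the 4 pairs compared. Their coding sequences were identical at 67.2% of aligned bases, with no identical run longer than 21 bases. Ddx5 overlaps Cep95 on the opposite strand and Ddx17 overlaps Kdelr3 likewise. Ddx17 spans bases 79411897 to 79430976 of chromosome 15 and Kdelr3 ends at base 79411940, so these genes share only a short stretch. The methods describe strand-specific libraries, but the strand setting of the counting is not given in the sources used here. Cep95 was at most 19.9 TPM. Kdelr3 was at 27.1, 42.1 and 9.76 TPM in non-acclimated and 44.3, 36.7 and 8.66 TPM in cold-acclimated libraries, and in cold-acclimated replicate 1 it was higher than Ddx17.

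The other helicases of this group moved less. Dhx9, a helicase of transcription complexes and double-stranded RNA, had 105, 167 and 250 TPM in non-acclimated and 202, 268 and 351 TPM in cold-acclimated libraries. The groups overlapped because of the spread between replicates, although each cold-acclimated library was above the non-acclimated one of its number (log2 fold change 0.70, limma adjusted p = 0.202). It was called with median of ratios scaling and the replicate block together (1.10, limma adjusted p = 0.0137). Ddx1, which acts in tRNA ligation, stood at 176 ± 39.7 TPM and 248 ± 74.1 TPM (SD, n = 3), with an adjusted p of 0.266 by limma.

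**Figure D2:**
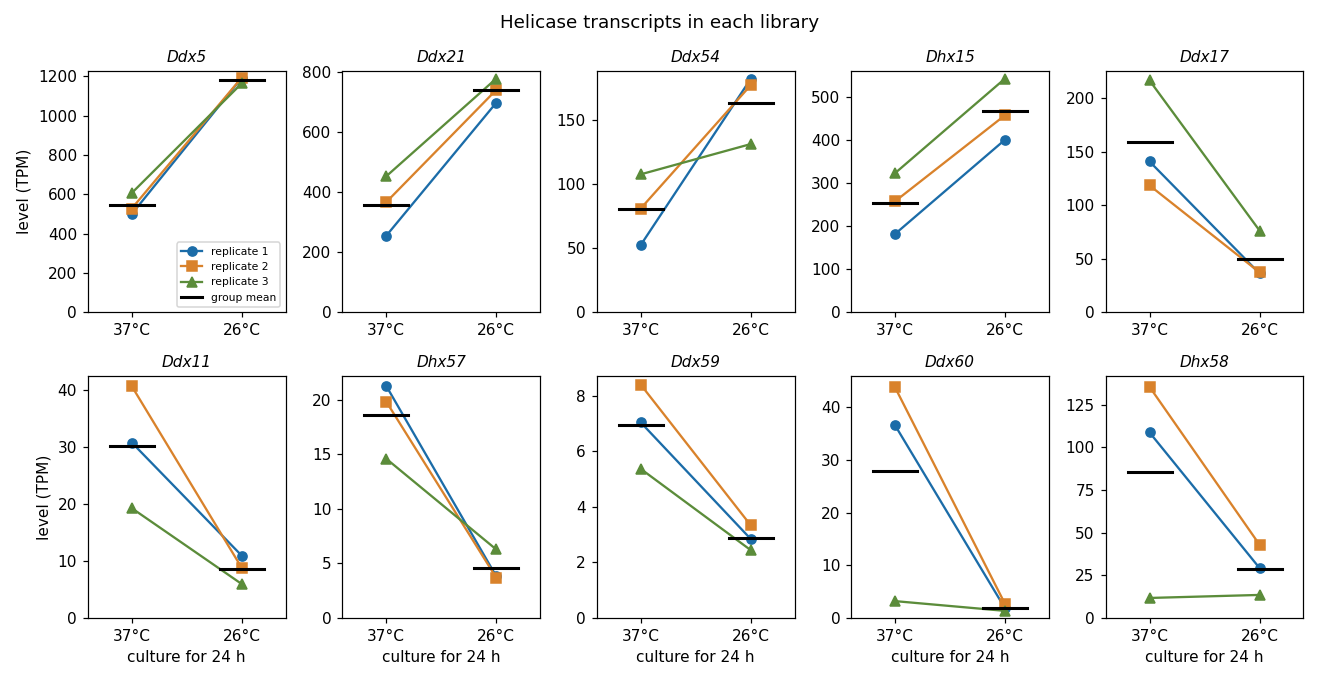
Level in TPM of 10 members in each library after 24 h at 37°C or 26°C, with lines joining libraries of the same replicate number and black bars for the group means. The lines of Ddx5, Ddx21, Ddx54 and Dhx15 go up in all 3 replicates and those of Ddx17, Ddx11, Dhx57, Ddx59 and Ddx60 go down in all 3, while Dhx58 was lower in non-acclimated replicate 3 than in any cold-acclimated library.

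Helicases of ribosome assembly lay above the median of all genes more often than below it. In all tested genes 2.63% were called up and 16.0% down, and 6.56% and 8.79% after median of ratios scaling. By voom 6.27% were called up and 9.18% down, and at an unadjusted p under 0.05 7.75% were higher and 30.0% lower. These shares are also the background for the counts of the roles that follow. Of the 6 tested for the small subunit, 1 was upregulated and none downregulated by limma (2 and 0 after median of ratios scaling and by voom, and 2 higher and 0 lower at an unadjusted p under 0.05), and their median was 0.65 above that of all genes. Of the 10 tested for the large subunit and other nucleolar functions, 1 was upregulated and none downregulated (4 and 0 after that scaling and by voom, and 4 higher and 1 lower at an unadjusted p under 0.05), and their median was 0.73 above that of all genes. In both groups the distance was positive in each replicate, at 0.92, 0.46 and 0.49 for the small and at 1.27, 0.94 and 0.39 for the large subunit.

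Ddx21 is a nucleolar helicase that links RNA polymerase I transcription with the processing of ribosomal RNA. It rose from 255, 367 and 453 TPM in non-acclimated to 698, 741 and 779 TPM in cold-acclimated libraries. The lowest cold-acclimated library was well above the highest non-acclimated one, and the mean was 2.06-fold higher (log2 fold change 1.08, SE 0.26, limma adjusted p = 0.0293). Leaving out replicate 1 or 2 of either condition raised the adjusted p to between 0.0761 and 0.0942.

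Ddx50, the neighbour and paralog of Ddx21 on chromosome 10, did not follow it. Its level was 69.1, 52.4 and 49.0 TPM in non-acclimated and 40.6, 51.5 and 58.7 TPM in cold-acclimated libraries. The groups overlapped and the direction differed between replicates (log2 fold change -0.17, or 0.22 after median of ratios scaling, with limma adjusted p of 0.655 and 0.541). The log2 ratio of Ddx21 to Ddx50 was 2.61 ± 0.67 in non-acclimated and 3.87 ± 0.19 in cold-acclimated libraries (SD, n = 3), with an exact permutation p of 0.1, adjusted to 0.2.

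Ddx54, a nucleolar helicase required for the large subunit, had 52.5, 81.1 and 108 TPM in non-acclimated and 182, 177 and 131 TPM in cold-acclimated libraries. The groups did not overlap, but replicate 3 contributed little, with log2 fold changes of 1.78, 1.12 and 0.28 in the 3 replicates. It was called narrowly (log2 fold change 1.06, SE 0.31, limma adjusted p = 0.0479). The adjusted p was 0.123 to 0.151 without replicate 1 or 2 of either condition and 0.0502 with a pseudocount of 0.1.

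Ddx51, Dhx33 and Ddx27 had the same shape. Ddx51, another large subunit factor, had 8.96, 12.8 and 20.9 TPM in non-acclimated and 29.1, 26.9 and 24.9 TPM in cold-acclimated libraries (log2 fold change 0.95, SE 0.32, limma adjusted p = 0.0726). Dhx33, which also acts in transcription of ribosomal RNA, stood at 32.7 ± 11.6 TPM and 59.4 ± 17.0 TPM (SD, n = 3). Ddx27 stood at 127 ± 27.6 TPM and 225 ± 22.4 TPM and passed the adjusted p (0.0446 by limma) but not the size, with a log2 fold change of 0.84. Without both libraries of replicate 3 these 3 genes were also called, at log2 fold changes of 1.30, 1.27 and 1.03.

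Other ribosome assembly helicases did not pass the test. Ddx24 and Ddx18, the most abundant of the large subunit group, stood at 249 ± 11.7 and 151 ± 48.8 TPM in non-acclimated and at 288 ± 30.7 and 211 ± 21.9 TPM in cold-acclimated cells, with limma adjusted p of 0.502 and 0.203. Ddx47, a small subunit factor, was almost level, with 130, 138 and 130 TPM against 147, 131 and 150 TPM. Ddx10, also of the small subunit, had 27.4, 37.0 and 45.2 TPM against 56.4, 55.5 and 70.6 TPM, without overlap (log2 fold change 0.74, limma adjusted p = 0.0788). Ddx55 went the other way, with 17.8, 19.8 and 24.5 TPM against 12.9, 9.18 and 15.4 TPM, also without overlap (log2 fold change -0.70, limma adjusted p = 0.107). Dhx37 (log2 fold change -0.59), Ddx31 (-0.32) and Ddx52 (-0.12) were negative too, and the last 2 were at 0.06 and 0.27 after median of ratios scaling.

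Spliceosomal helicases went in both directions around 0, but 9 of the 10 tested lay above the median of all genes. Their median was 0.31 above it, at 0.43, 0.22 and 0.31 in replicates 1, 2 and 3. None of the 10 was called by limma (1 had an unadjusted p under 0.05, and 1 was called by voom on the recovered reads, Dhx15 in both). The DEAH-box members drive single steps of splicing: Dhx16 and Dhx38 remodel it around the catalytic steps, Dhx8 releases the spliced mRNA, and Dhx15 takes the spent spliceosome apart. Dhx15, the most abundant, had 182, 258 and 323 TPM in non-acclimated and 401, 457 and 542 TPM in cold-acclimated libraries. Every cold-acclimated library was higher than every non-acclimated one, yet the adjusted p by limma was 0.0548 at a log2 fold change of 0.90 (SE 0.28). It was called after median of ratios scaling (log2 fold change 1.30, limma adjusted p = 0.0194).

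The other DEAH-box members of splicing went in both directions. Dhx38 had 41.9, 64.1 and 67.8 TPM in non-acclimated and 64.7, 77.7 and 99.6 TPM in cold-acclimated libraries, higher within each replicate number (log2 fold change 0.48, limma adjusted p = 0.256). Dhx8 and Dhx35 were lower without overlap as TPM, at 60.9 ± 4.27 against 49.5 ± 7.57 TPM and at 29.5 ± 2.82 against 21.0 ± 3.91 TPM (SD, n = 3), with limma adjusted p of 0.359 and 0.185. The log2 fold change of Dhx8 was -0.30, and 0.09 after median of ratios scaling. Ddx46, which helps U2 snRNP bind the branch site, had 83.5, 114 and 201 TPM in non-acclimated and 148, 195 and 293 TPM in cold-acclimated libraries. It was higher within each replicate number, and the groups overlapped (log2 fold change 0.71, limma adjusted p = 0.225). With the replicate block its adjusted p was 0.0271 by limma, and with median of ratios scaling as well it was called (1.11, limma adjusted p = 0.0127). Ddx23, a U5 snRNP helicase, was nearly equal in mean, at 166 ± 70.2 and 165 ± 77.0 TPM, and was about as high in both libraries of replicate 3 (247 and 254 TPM).

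For mRNA export, none of the 4 tested members was called by limma, where Ddx19b alone had an unadjusted p under 0.05 and was called by voom. All 4 lay above the median of all genes, and their median was 0.39 above it. Ddx39b, known as UAP56, loads export factors on mRNA within the TREX complex, and its level was 293, 300 and 477 TPM in non-acclimated and 305, 297 and 438 TPM in cold-acclimated libraries. Its close paralog Ddx39a stood at 98.8 ± 45.4 and 89.8 ± 38.8 TPM (SD, n = 3). The log2 ratio of Ddx39a to Ddx39b changed by -0.09, with an exact permutation p of 0.5. Both genes had negative log2 fold changes (-0.12 for Ddx39a and -0.03 for Ddx39b) that became 0.28 and 0.37 after median of ratios scaling.

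Ddx19b, which releases export factors at the nuclear pore, had 12.9, 14.3 and 14.1 TPM in non-acclimated and 15.8, 33.4 and 39.2 TPM in cold-acclimated libraries. The non-acclimated libraries were close together, whereas cold-acclimated replicate 1 was only slightly higher (log2 fold change 0.95, SE 0.35, limma adjusted p = 0.0912). Its neighbour Ddx19a stood at 79.7 ± 24.0 and 88.0 ± 29.4 TPM (SD, n = 3). These paralogs share 93.6% of their coding bases with an identical run of 275 bases, so a read within such a run cannot be assigned to one of them, and their separate values are uncertain. The log2 ratio of Ddx19a to Ddx19b changed by -0.81, with an exact permutation p of 0.2, adjusted to 0.267.

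**Figure D3:**
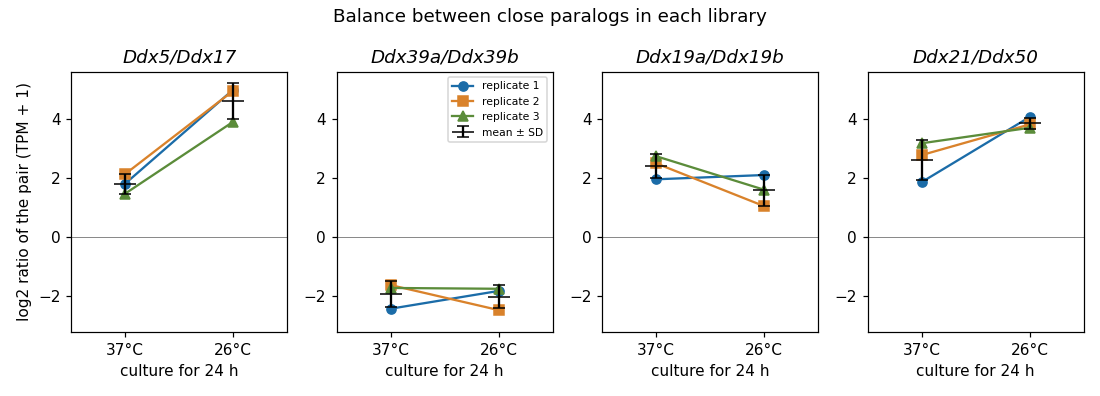
Log2 ratio of TPM + 1 of the paralog pairs Ddx5/Ddx17, Ddx39a/Ddx39b, Ddx19a/Ddx19b and Ddx21/Ddx50 in each library, with lines joining libraries of the same replicate number and black marks for the mean ± SD of 3 libraries. The conditions are apart for Ddx5/Ddx17 and Ddx21/Ddx50 and overlap for the other pairs.

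None of the 5 tested helicases of translation and mRNA turnover was called by limma or voom, and 2 had an unadjusted p under 0.05, Dhx29 and Dhx34. Ddx3x, which helps ribosomes start on structured mRNAs, varied widely between replicates, with 68.1, 130 and 324 TPM in non-acclimated and 147, 169 and 426 TPM in cold-acclimated libraries. Within each replicate number the cold-acclimated library was higher, but replicate 3 was the highest in both conditions and the groups overlapped (log2 fold change 0.62, SE 0.62, limma adjusted p = 0.505). It was called with median of ratios scaling and the replicate block together (1.02, limma adjusted p = 0.0202). Ddx6, a repressor of translation in P-bodies, stood at 109 ± 11.0 and 92.9 ± 28.9 TPM (SD, n = 3). Its log2 fold change was -0.27, and 0.12 after median of ratios scaling.

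The scarcer members of this group were lower. Dhx29, which aids scanning of long structured leaders, had 40.6, 42.1 and 56.5 TPM in non-acclimated and 27.8, 20.9 and 38.6 TPM in cold-acclimated libraries. Dhx34, of nonsense-mediated decay, had 10.7, 12.4 and 11.2 TPM against 4.19, 5.78 and 8.66 TPM. Neither gene overlapped between groups, and neither passed the test (log2 fold changes -0.68 and -0.83, limma adjusted p = 0.129 and 0.0847).

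The 2 mitochondrial members were not called by limma or voom, and 0 had an unadjusted p under 0.05. Dhx30, which supports assembly of the mitochondrial ribosome, stood at 66.8 ± 10.8 and 50.8 ± 5.17 TPM, and Ddx28, of the same process, at 21.2 ± 5.11 and 24.7 ± 3.86 TPM (SD, n = 3). The log2 fold change was -0.38 for Dhx30, which became 0.01 after median of ratios scaling, and 0.23 for Ddx28.

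The 2 helicases of innate sensing had the largest standard errors of all members, and neither was called by limma (1 had an unadjusted p under 0.05) or by voom. Ddx60 is an interferon-induced antiviral helicase. It had 36.5, 43.7 and 3.18 TPM in non-acclimated and 1.80, 2.64 and 1.33 TPM in cold-acclimated libraries. Non-acclimated replicate 3 was close to the cold-acclimated libraries, so that the replicates had log2 fold changes of -3.74, -3.62 and -0.84. All 3 were negative, and the log2 fold change of -2.74 (SE 0.84) was the lowest of all members, with an adjusted p of 0.0562 by limma. Ddx60 was called when the replicate number was a block (limma adjusted p = 0.0138) and without non-acclimated replicate 3 (0.0111), at a log2 fold change of -3.83 in the latter.

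Dhx58, known as LGP2, regulates the RNA sensors RIG-I and MDA5. Its level was 109, 136 and 11.7 TPM in non-acclimated and 29.3, 43.0 and 13.5 TPM in cold-acclimated libraries. Replicates 1 and 2 were lower in the cold and replicate 3 was slightly higher, and the groups overlapped (log2 fold change -1.10, SE 0.89, limma adjusted p = 0.409). Without both libraries of replicate 3 it was called at -1.75 (limma adjusted p = 0.00761). The sensors themselves carry symbols outside the rule. Rigi, which encodes RIG-I, had 49.1, 43.6 and 40.8 TPM against 13.3, 11.4 and 29.4 TPM and was downregulated (log2 fold change -1.37, limma adjusted p = 0.0358). After median of ratios scaling Rigi was not called (-0.99, limma adjusted p = 0.0724). Ifih1, which encodes MDA5, had 88.6, 77.2 and 16.1 TPM against 25.0, 19.5 and 10.1 TPM and was not called (log2 fold change -1.45, limma adjusted p = 0.147). As for Ddx60 and Dhx58, non-acclimated replicate 3 was the lowest of its group for Ifih1 by a wide margin.

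**Figure D4:**
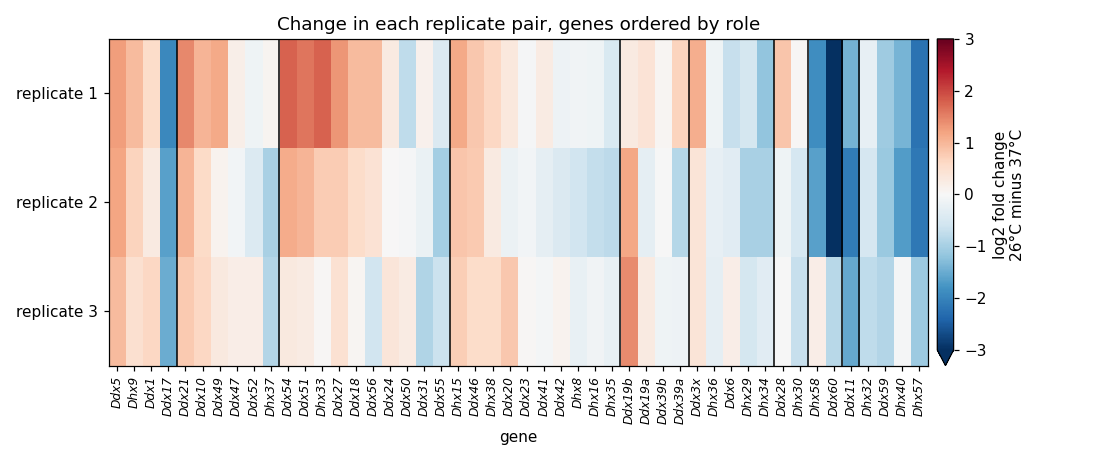
Log2 fold change (26°C minus 37°C, of TPM + 1) of the 48 tested members in each replicate pair, ordered by role with black lines between roles, red for higher and blue for lower in cold-acclimated cells. Values below -3 are shown in the darkest blue. Replicates 1 and 2 share most of their pattern, and replicate 3 is paler for the ribosome assembly and innate sensing genes.

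Ddx11 is known as a DNA helicase of the iron-sulfur type that acts in sister chromatid cohesion. It had 30.8, 40.7 and 19.3 TPM in non-acclimated and 10.9, 8.80 and 5.96 TPM in cold-acclimated libraries. Every cold-acclimated library was lower than every non-acclimated one, and the mean was 3.54-fold lower (log2 fold change -1.68, SE 0.35, limma adjusted p = 0.0188). The adjusted p was 0.0526 to 0.0785 without replicate 1 or 2 of either condition.

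The 4 members whose roles are less defined all had negative log2 fold changes, and 2 of them were downregulated. Dhx57, whose function is poorly known, had 21.3, 19.8 and 14.6 TPM in non-acclimated and 3.83, 3.70 and 6.28 TPM in cold-acclimated libraries. The groups were well apart, the mean was 4.03-fold lower, and its adjusted p was the smallest among the members (log2 fold change -1.82, SE 0.29, limma adjusted p = 0.00973). Without non-acclimated replicate 2 the adjusted p was 0.0530, and the call held in the other 5 fits that left out 1 library.

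Ddx59, a gene linked to ciliary disease in humans, was the scarcest tested member, with 7.05, 8.41 and 5.37 TPM in non-acclimated and 2.85, 3.34 and 2.45 TPM in cold-acclimated libraries. The groups did not overlap (log2 fold change -1.02, SE 0.28, limma adjusted p = 0.0396). It was not called after median of ratios scaling (log2 fold change -0.69, limma adjusted p = 0.123), nor without replicate 1 or 2 of either condition (0.0919 to 0.146) or without cold-acclimated replicate 3 (0.0564).

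Dhx40 had 24.4, 27.9 and 19.5 TPM in non-acclimated and 8.62, 8.09 and 18.9 TPM in cold-acclimated libraries. Replicates 1 and 2 were apart, whereas both libraries of replicate 3 were nearly equal (log2 fold change -1.04, SE 0.36, limma adjusted p = 0.0750). It was called without cold-acclimated replicate 3, at a log2 fold change of -1.40 and an adjusted p of 0.00992. Dhx32, in which no motif II of the forms searched was found, stood at 29.9 ± 5.96 and 21.0 ± 5.21 TPM (SD, n = 3), with an adjusted p of 0.235 by limma.

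Leaving out both libraries of replicate 3 added calls among the members and removed none. Several calls were lost without a single library of replicate 1 or 2, and that of Ddx59 also without cold-acclimated replicate 3 alone. No fit left out both libraries of replicate 1 or both of replicate 2, so the replicates were not compared on equal terms. Across the 48 members, the log2 fold changes of replicates 1 and 2 had a Spearman correlation of 0.88, against 0.65 between replicates 1 and 3 and 0.78 between 2 and 3. These correlations run over genes, which share their libraries. Without both libraries of replicate 3, 6 members were upregulated, where 5.34% of all genes were, and 8 were downregulated, where 25.3% were. The added genes were Ddx27, Ddx51 and Dhx33 on the upregulated side and Ddx60, Dhx34, Dhx40 and Dhx58 on the downregulated side. The labels mention an old and a new extraction batch but assign no library to either, so the part of a batch in these values was not tested.

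Taking the members together, 5 genes held the highest mean levels over the 6 libraries: Ddx5 (864 TPM), Ddx21 (549 TPM), Dhx15 (361 TPM), Ddx39b (352 TPM) and Ddx24 (268 TPM). The summed level of all members was 3894, 4701 and 5781 TPM in non-acclimated and 5930, 5921 and 7295 TPM in cold-acclimated libraries. The groups did not overlap. Ddx5 alone made up 12.8, 11.2 and 10.5% of this sum in non-acclimated and 20.1, 20.1 and 15.9% in cold-acclimated libraries. Leaving Ddx5 out, the sum was 3395, 4174 and 5174 TPM against 4738, 4728 and 6132 TPM, and the groups overlapped.

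The 4 members not tested were at or near 0. Ddx3y, the Y-linked paralog of Ddx3x, was listed at 0 in all 6 libraries. Ddx4 and Ddx43, known from germ cells, and Ddx25, known from the testis, reached at most 0.207 TPM in any library, which was 4 reads or fewer.

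The helicase partners and relatives that fall outside the symbol rule were examined as lists. Of 22 other RNA helicases tested, 4 (18.2%) were downregulated, close to the 16.0% of all tested genes, and none upregulated by limma (6 lower and 1 higher at an unadjusted p under 0.05), and after median of ratios scaling and by voom 2 were downregulated and 1 upregulated. Beside Rigi they included Mov10, an antiviral helicase with 85.4, 137 and 82.9 TPM against 14.2, 17.0 and 22.4 TPM (log2 fold change -2.43), and Helz (-1.16). Eif4a1, the DEAD-box helicase of translation initiation, was at 920 to 1677 TPM in non-acclimated and 1201 to 1381 TPM in cold-acclimated libraries (log2 fold change 0.02). Eif4a3, of the exon junction complex, had a log2 fold change of 0.69 and was called after median of ratios scaling (1.09, limma adjusted p = 0.0319). The median of this list was 0.17 below that of all genes.

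Cofactors of the family were set beside the 2.63% of all tested genes called up and the 16.0% called down. Of 21 G-patch proteins, which activate DEAH-box helicases, 3 (14.3%) were downregulated (Rbm5, Sugp1 and Gpatch11, log2 fold changes -1.41, -1.44 and -1.40) and none upregulated by limma, with 4 lower and 2 higher at an unadjusted p under 0.05. Gpatch3 had the highest log2 fold change of the list, 1.29 (limma adjusted p = 0.0895), and was called after median of ratios scaling (1.65, limma adjusted p = 0.0427). Tfip11, the G-patch partner of Dhx15, had a log2 fold change of -0.32 (limma adjusted p = 0.602). Of 25 MIF4G-type and other cofactors of DEAD-box helicases, 2 were downregulated, Dcp2 (-1.30) and Edc3 (-1.02), both of mRNA decapping, and none upregulated, with 3 lower and 3 higher at an unadjusted p under 0.05. Edc4, of the same process, had a log2 fold change of 0.84 (limma adjusted p = 0.0351). After median of ratios scaling Edc4 was called (1.23, limma adjusted p = 0.0185), and Dcp2 and Edc3 were not (limma adjusted p = 0.0529 and 0.0788). Of 15 TREX partners of Ddx39b, Thoc5 was downregulated (-1.50) and none was upregulated, with 1 lower and 1 higher at an unadjusted p under 0.05. Thoc3 had a log2 fold change of 1.01 (limma adjusted p = 0.0512). After median of ratios scaling Thoc3 was called (1.41, limma adjusted p = 0.0205) and Thoc5 was not (-1.11, limma adjusted p = 0.0557). After median of ratios scaling and by voom the counts up and down were 2 and 2 for the G-patch proteins, 2 and 0 for the other cofactors, and 1 and 0 for the TREX partners. The median log2 fold change lay above that of all genes by 0.09, 0.47 and 0.28 in these 3 lists. Above that median lay 12 of 21, 21 of 25 and 12 of 15 genes. A higher centre was thus not particular to the members, at 0.31.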

How the data were processed

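Poly(A)+ RNA of 6 libraries was analysed. The TPM values were deposited by the authors for all genes. Per the submitters' processing notes, reads were handled with FastQC 0.11.7, Trimmomatic 0.38, HISAT2 2.1.0 (GRCm39) and featureCounts 1.6.3. For the strand setting, the annotation release and the step from counts to TPM, no account was found in the sources used here. No scaling between libraries beyond a fixed total was seen, so a large rise in a few genes lowers the TPM of the others.

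For 100% of the 21195 genes above 0, values were whole multiples of a common step within 1e-06 reads, which gave the read numbers. limma 3.58.1 in R 4.3.3 was fitted to log2(TPM + 1), with the trend option of eBayes, on the 12227 genes of at least 1 TPM on average, 3 against 3 libraries, with Benjamini-Hochberg adjustment over all of them. Paralog ratios were tested by exact permutation over libraries. Python 3.11.15 with pandas 2.3.3, scipy 1.17.1 and numpy 2.4.6 gave the other values, matplotlib 3.10.9 the figures and mafft 7.526 the alignments of coding sequences. The procedures were run on simulated data that held no replicate effect and as many raised as lowered genes. These libraries differ from that in both respects, so the simulation does not show how reliable the calls are here.

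The members, lists, tests and the alternatives were chosen with earlier results of these data known. Genes named are the called members, the 5 most abundant, the 5 largest changes in each direction without overlap, the paralog pairs, the 2 most abundant of each role and the members not tested. Other members, and genes from the lists of relatives, were named after their values were seen. One gene of these lists is counted but not reported here by name. Motif II was read from GENCODE vM39 coding sequences in place of protein sequences. Over all tested genes, deviations from the group mean correlated at 0.48, 0.50 and 0.51 between libraries of the same replicate number and at -0.41 to 0.02 otherwise. Over the members these values were 0.17, 0.64 and 0.53, and -0.60 to 0.45 otherwise. The replicate numbers were taken as pairs in the replicate block and in comparisons within replicate numbers. The main limma fit and the permutation tests did not use this pairing. The labels call the libraries biological replicates from independent batches, and the methods call them independently prepared. Cd4 and Trac differed between replicate numbers in both conditions alike, so the spread between libraries was not technical alone. Whether the libraries of the same number came from the same culture is not stated. Alternatives were median of ratios scaling, a pseudocount of 0.1, no filter, a replicate block, adjusted p alone, leaving out each library, and voom on the recovered reads. Leaving out both libraries of replicate 3, and scaling together with the block, were added after the data were seen.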

Additional observations from a re-analysis of the deposited data

How the results depend on the processing

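The calls of the members depended on the scaling, the filter and single libraries. Counts of members up and down are given with the shares of all tested genes in parentheses. Beside 3 and 4 (2.63% and 16.0%), they were 9 and 3 with median of ratios scaling (6.56% and 8.79%). With voom on the recovered reads they were 9 and 3 (6.27% and 9.18%). Without the filter on low values they were 1 and 2 of 51 members, or 1.96% and 3.92% (0.868% and 5.29% of 21195 genes). They were 6 and 8 without both libraries of replicate 3 (5.34% and 25.3%). With median of ratios scaling and the replicate block together they were 12 and 4 (8.88% and 12.6%). Over the fits that left out 1 library they ranged from 0 to 5 and from 0 to 6 (0.483% to 3.75% and 2.82% to 22.3%). The replicate block alone changed no call of a named member other than that of Ddx60.

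For all tested genes, 321 were up and 1954 down. These counts were 802 and 1075 with median of ratios scaling, 767 and 1122 with voom, and 184 and 1121 of 21195 genes without the filter. They were 653 and 3088 without both libraries of replicate 3, and 1086 and 1544 with scaling and block together. Leaving out 1 library gave 59 to 459 up and 345 to 2725 down. The cause was not tested, although these fits have fewer libraries.

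The median of the members relative to all genes was 0.31, 0.043 without the filter and 0.23 to 0.53 without 1 library. The summed level of the members was higher in cold-acclimated cells by 1590 TPM, by 3097 TPM with median of ratios scaling, and by 1133 to 2084 TPM without 1 library.

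With median of ratios scaling, 13 of 48 members went from a log2 fold change below 0 to one above 0 (Ddx23, Ddx31, Ddx39a, Ddx39b, Ddx41, Ddx42, Ddx50, Ddx52, Ddx6, Dhx8, Dhx16, Dhx30 and Dhx36) and 0 the other way. With median of ratios scaling, voom, and scaling with the block, the log2 fold change was 0.28, 0.28 and 0.28 for Ddx39a, 0.37, 0.37 and 0.37 for Ddx39b, 0.22, 0.23 and 0.22 for Ddx50, 0.12, 0.12 and 0.12 for Ddx6, and 0.014, 0.011 and 0.014 for Dhx30. Ddx39b was at 0.02 without both libraries of replicate 3. Without 1 library the range was -0.12 to 0.33 for Ddx19a, -0.49 to 0.21 for Ddx39a and -0.21 to 0.20 for Ddx39b, and -0.34 to 0.14 for the log2 ratio of Ddx39a to Ddx39b. The ratios of the other pairs kept their direction in each fit, at 2.62 to 3.16 for Ddx5/Ddx17, 0.88 to 1.54 for Ddx21/Ddx50 and -1.07 to -0.54 for Ddx19a/Ddx19b.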

Other observations

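The promoters of the members were read from RefSeq (GRCm38.p6, 250 bases before to 50 after each start), where 46 members had 57 promoters. Both strands were searched. CCGGAA, the core that ETS factors recognise, was in 43.9% of the members' promoters and in 14.9% of all 32851 promoters. GGGCGG was in 57.9% and 35.7%, CCAAT in 45.6% and 37.4%, the E-box CACGTG in 12.3% and 7.15%, and TATAAA in 8.77% and 13.6%. A match is a description of letters, and no test was made.

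Mir3064 lies within Ddx5 on the same strand. It was listed at 159, 142 and 114 TPM in non-acclimated and 193, 365 and 95.0 TPM in cold-acclimated libraries, and reads of a host and of a gene inside it cannot be told apart from these values.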
